A study of Mus musculus with 9 samples.

Results

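The cytosolic heat shock response was followed in mouse liver through 10 chaperone and co-chaperone genes chosen by name, Hspa1a, Hspa1b, Hspb1, Hsph1, Dnajb1, Dnaja1, Hspa8, Hsp90aa1, Bag3 and Hspd1. They are 10 of the 54532 genes in the deposited expression table, and all 10 were among the 9699 genes that passed the filter on low values. Livers came from male C57BL/6 mice of 5 to 7 weeks, in 3 groups with 3 biological replicates each. NC mice were controls, and whether they were fasted or given a vehicle injection is not given in the sources used here. APAP mice were fasted overnight, received 500 mg/kg acetaminophen (APAP) into the peritoneum and were studied 6 h later. AMSC mice received the same fast and dose, and 200000 adipose-derived mesenchymal stem cells (AMSCs) grown from inguinal fat of C57BL/6 mice were given through the tail vein directly after it, with the same 6 h time point. The libraries of the AMSC group are numbered 2, 3 and 4, those of the other groups 1, 2 and 3.

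Heat shock proteins are chaperones that hold, refold or hand over damaged proteins. The HSP70 proteins do this in a cycle in which J-domain proteins (the DNAJ families) bring the client, and nucleotide exchange factors such as Hsph1 and Bag3 release it, while HSP90 acts on later folding steps and small heat shock proteins such as Hspb1 keep unfolded clients from clumping. Stress genes of this group are switched on by the transcription factor HSF1, which binds heat shock elements in their promoters, and in the liver an overdose of APAP forms a reactive metabolite that binds proteins. Hspd1 (HSP60) is the chaperonin of the mitochondrial matrix, so for this gene the word cytosolic does not hold.

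FPKM values, in which fragments are divided by gene length and by sequencing depth, were compared on the scale of log2(FPKM + 1). Each limma model held only the 2 groups compared, and p-values were adjusted by Benjamini-Hochberg over all 9699 genes. DEGs were genes whose adjusted p did not exceed 0.05 and that differed by 1 or more on the log2 scale, up or down. Libraries held 13418921 to 16210930 reads on genes, and 1 read on a gene of 1 kilobase was worth 0.0578 to 0.0807 FPKM. Hepatocyte markers (Alb, Apoa1, Ttr, Cps1, Hnf4a and Asgr1) summed to 37714 to 40875 FPKM in the NC group, 53981 to 62982 in the APAP group and 47118 to 50082 in the AMSC group. These sums did not overlap between the groups and were mostly Alb (means 28741, 44835 and 33180 FPKM in the same order). Ttr, Cps1, Hnf4a and Asgr1 each overlapped between the NC and APAP groups. The part of the hepatocyte markers in the differences given here was not tested. The date in the label of NC replicate 3 is not that of the other 8 libraries. Values against the NC group are also given without it where this changed a limma call of a member. For the companion genes described at the end, they are given where it changed a printed count or the call of a named gene. AMSC replicate 3 stood apart for the heat shock genes, as described first, and values that rest on it are given with and without it.

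Heat shock elements are printed here because they are the known binding sequence of HSF1, and no link between them and the values below was tested. The element is an alternating repeat of GAA and its reverse complement with any 2 bases between units. Windows of 300 bases (250 before and 50 after an annotated start) were read from RefSeq sequences on GRCm38.p6 for 8 of the 10 genes, in 13 windows. The 2-unit forms GAANNTTC and TTCNNGAA, searched on both strands, were found for 7 of these 8 genes (8 of 13 windows), against 15.1% of all 32851 windows and 17.0% of the 27025 genes that have one. The 3-unit forms GAANNTTCNNGAA and TTCNNGAANNTTC, which contain the 2-unit forms, were found for Hspd1 and Hsph1, against 0.603% of all windows and 0.662% of genes. No match to these letters was in either Dnajb1 window. A match is a run of letters and not evidence that a factor was bound there. Stretches of 30 bases are given 5′ to 3′ on the strand of the gene, with the matched units in capitals.
Hspa1a (chr17:34972242-34972271, minus strand, the same letters for Hspa1b at chr17:34959324-34959353): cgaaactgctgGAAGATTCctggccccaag
Hspb1 (chr5:135887801-135887830, plus strand, 2 separate matches): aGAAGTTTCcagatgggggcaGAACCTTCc
Hsph1 (chr5:149636287-149636316, minus strand, 3 units just after the start): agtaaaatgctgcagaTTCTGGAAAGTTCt
Dnaja1 (chr4:40722333-40722362, plus strand): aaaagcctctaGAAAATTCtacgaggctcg
Bag3 (chr7:128523603-128523632, plus strand): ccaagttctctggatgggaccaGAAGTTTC
Hspd1 (chr1:55088053-55088082, minus strand): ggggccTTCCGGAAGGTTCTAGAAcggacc
The Hspd1 stretch lies within the annotated Hspd1 gene and before the start of its neighbour Hspe1, the co-chaperonin HSP10, on the other strand. The windows of both genes hold it, each on its own strand.

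**Figure D1:**
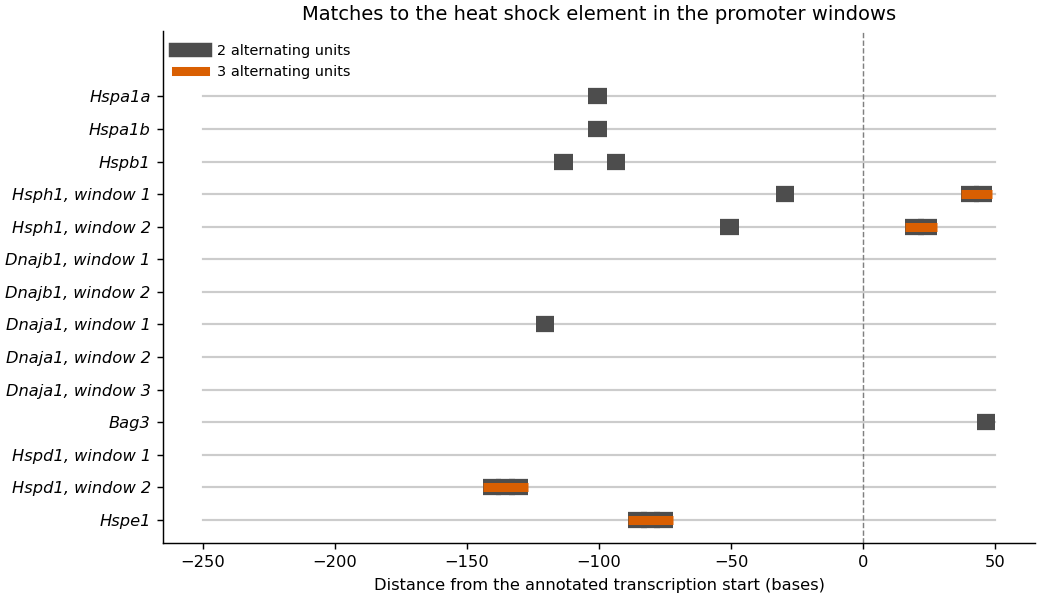
Positions of the matches in each promoter window, in bases from the annotated transcription start (dashed line), for 8 members and for Hspe1, the neighbour of Hspd1. Grey bars are 2-unit matches and orange bars 3-unit matches. The matches of Hspa1a and Hspa1b both lie 104 to 97 bases before the start, and the Dnajb1 rows are empty.

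Hspa1a and Hspa1b, the stress-inducible HSP70 genes, are near-identical copies on chromosome 17. Their annotated transcripts (2967 and 2803 bases) were identical at 2514 of 2771 aligned bases, or 90.7%, with a longest identical run of 638 bases. The 250 bases before their starts differed at 3 positions, C44T, T47C and T249G, counted from 1 at the 5′ end with the Hspa1a base first. The Hspa1a stretch (chr17:34972157-34972406 of GRCm38.p6, minus strand, with the matched element in capitals) is shown since both genes share nearly all of it.
Hspa1a upstream: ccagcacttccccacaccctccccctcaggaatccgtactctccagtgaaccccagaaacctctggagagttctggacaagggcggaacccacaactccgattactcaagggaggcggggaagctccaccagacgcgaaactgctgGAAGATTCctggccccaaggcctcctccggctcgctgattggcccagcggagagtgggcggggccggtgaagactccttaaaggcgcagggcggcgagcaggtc
How reads that match both genes were counted is not given in the sources used here, so the separate values of Hspa1a and Hspa1b are uncertain and their sum is given beside them.

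AMSC replicate 3 had the highest value of all libraries for every member except Hspa8, which was highest in APAP replicate 2. The rule for this description was chosen after the values were seen, so it is given with no test. In AMSC replicate 3, 6 of the 10 members (Hspa1a, Hspa1b, Hspb1, Hsph1, Hsp90aa1 and Bag3) lay at least 1 on the log2 scale above both other AMSC libraries, which 0.33% of all genes tested (32 of 9699) did. In each of the other 8 libraries, 0 of the members lay as far above both others of its group, and 5 to 39 genes did. Hspa1b alone lay as far below both others, in APAP replicate 2. Against the mean FPKM of the other two AMSC libraries, AMSC replicate 3 was 20.6 times as high for Hspa1a and 13.6 times for Hspa1b. The ratio was 5.34 for Hsph1, 2.39 for Hspb1, 2.33 for Bag3 and 2.11 for Hsp90aa1. Dnaja1 (1.75), Dnajb1 (1.42), Hspd1 (1.23) and Hspa8 (1.10) were less raised. Of the 69 tested companion genes described at the end, 0 met the same rule in this library. These are bulk liver samples, in which fewer cells of a type and less RNA per cell cannot be told apart.

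The same library had the fewest reads on genes (13418921), and its marker sums lay in or near the range of the others. Hepatocyte markers summed to 47301 FPKM in it, against 47118 and 50082 in AMSC replicates 2 and 4. Neutrophil markers summed to 6.17 FPKM, against 6.01 and 4.38, and Kupffer cell markers to 48.3, against 72.1 and 44.5. The stromal and stellate list, which holds markers that AMSCs share, summed to 25.3 FPKM, the lowest of the 3 (42.4 and 30.1 in the others). Most of that sum was Dcn (18.0 FPKM, against 31.7 and 21.9 in AMSC replicates 2 and 4). Col1a1, Col1a2, Col3a1 and Thy1 were also lowest in AMSC replicate 3. Pdgfra, Pdgfrb and Lrat lay between the other AMSC libraries, and Des was above both. RNA quality values per library were not used here.

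**Figure D2:**
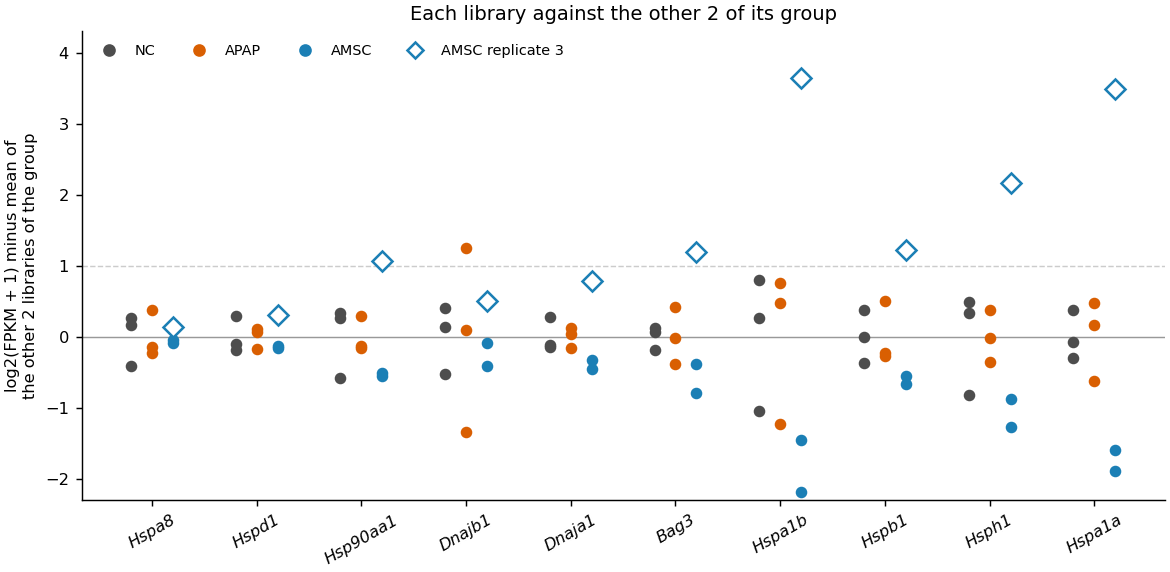
For each member, every library's log2(FPKM + 1) minus the mean of the other 2 libraries of its group (vertical axis, log2 units), with groups in colour. The open diamonds are AMSC replicate 3, at 3.49 for Hspa1a, 3.64 for Hspa1b and 2.16 for Hsph1, and the dashed line marks a difference of 1.

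At baseline the members spanned a wide range. In the NC group Hspa8, the constitutive HSP70, was highest (258.7 to 352.8 FPKM), followed by Hspd1 (152.4 to 190.2). Hsp90aa1 (41.8 to 64.4 FPKM) and Dnaja1 (38.5 to 47.0) overlapped, and Bag3 came next (15.4 to 17.9). The NC ranges of Hsph1, Hspb1, Dnajb1 and Hspa1b overlapped with one another between 3.17 and 12.8 FPKM, so their order is not resolved. Hspa1a was lowest, with 8 to 30 reads per NC library. Over all 9 libraries the order by mean FPKM was Hspa8, Hspd1, Hsp90aa1, Dnajb1, Dnaja1, Bag3, Hspa1b, Hspb1, Hsph1 and Hspa1a.

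**Figure D3:**
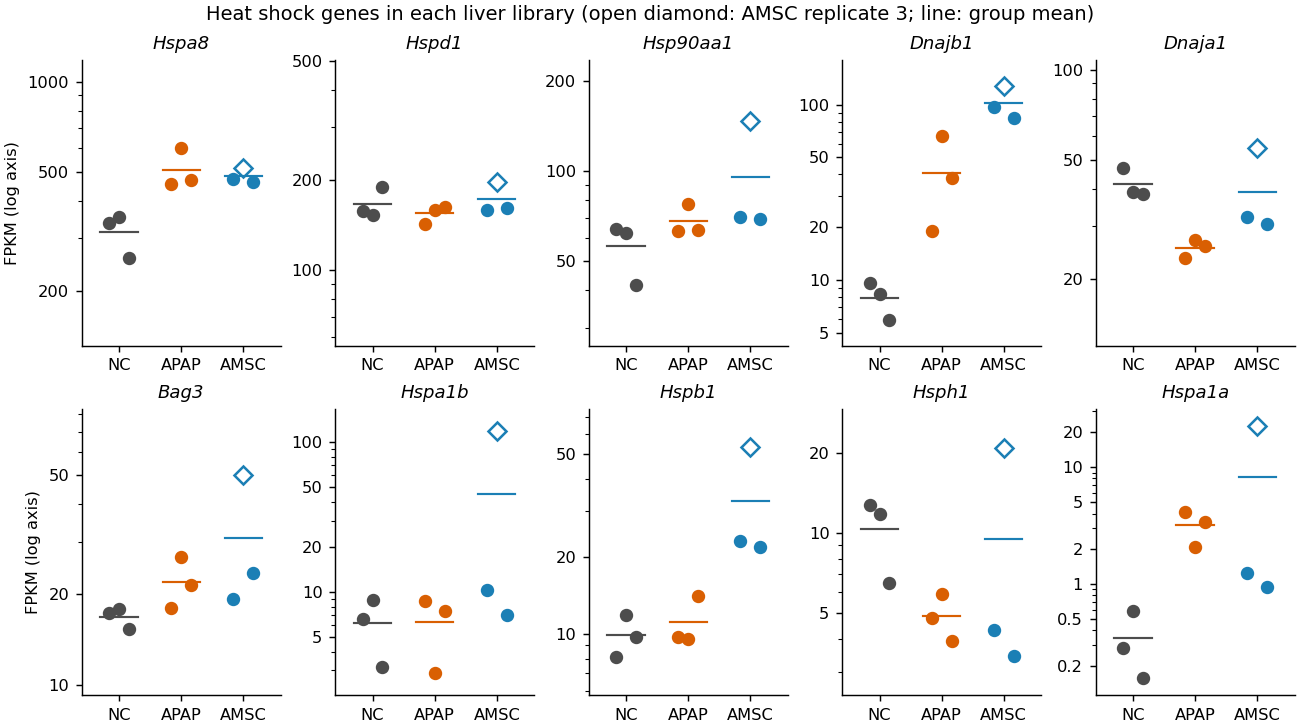
FPKM of each member (log axis, its own range per panel) in the NC, APAP and AMSC libraries, ordered by mean FPKM. Points are single libraries, lines group means over 3 libraries, and open diamonds AMSC replicate 3. For Dnajb1 all AMSC libraries (83.4 to 128.1) are above all APAP libraries and these above all NC libraries, whereas the AMSC means of Hspa1a, Hspa1b and Hsph1 lie well above 2 of their 3 libraries.

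The first comparison asked which members differed 6 h after APAP. In APAP against NC, 2 of the 10 members were DEGs, Dnajb1 and Hspa1a, both higher, where 7.9% of all genes tested were DEGs. By the adjusted p alone 5 members passed, with Dnajb1, Hspa1a and Hspa8 higher and Dnaja1 and Hsph1 lower, where 25.9% of genes passed. The groups did not overlap for 6 members (the same 5 and Bag3), against 43.2% of genes. The median log2 fold change of the members was 0.22, and that of all genes tested was -0.0043. Without NC replicate 3 the members' median was 0.12, and 3 members were DEGs (Dnajb1 and Hspa1a higher, Hsph1 lower), where 8.21% of genes were. By the adjusted p 4 members then passed, these 3 and Dnaja1, where 22.2% of genes did.

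Dnajb1 (HSP40), the J-domain partner of stress-induced HSP70, had 9.58, 8.36 and 5.91 FPKM in NC replicates 1 to 3 and 19.1, 65.8 and 38.2 FPKM in APAP replicates 1 to 3. All APAP libraries were above all NC libraries, with APAP replicate 2 far above APAP replicate 1. The group means (± SD, n = 3) were 7.95 ± 1.87 and 41.0 ± 23.5 FPKM, and limma gave a rise of 2.09 on the log2 scale (SE 0.40, adjusted p = 0.00870). Without NC replicate 3 it was 1.91 (adjusted p = 0.0313), and a test of all 24849 genes above 0 gave an adjusted p of 0.0718.

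Hspa1a had 0.283, 0.585 and 0.157 FPKM in the NC libraries and 4.10, 2.07 and 3.41 FPKM in the APAP libraries. Its NC mean of 0.341 FPKM was below the filter of 1 FPKM on the mean over all libraries. It passed only through the higher APAP mean (3.19) and AMSC mean (8.20). Its call is therefore not independent of the filter and is no support for a rise of the members. Every APAP library was above every NC library, and the log2 fold change was 1.62 (SE 0.21, adjusted p = 0.00208 from limma). The pseudocount of 1 makes the change of so low a gene smaller, and with a pseudocount of 0.1 it was 2.96. When all 9 libraries shared a single estimate of the spread, the call of Hspa1a was lost (adjusted p = 0.138). Hspa1b had 6.65, 8.83 and 3.17 FPKM in the NC libraries and 8.67, 2.88 and 7.51 FPKM in the APAP libraries. Those groups overlapped almost fully, and differed by 0.01 on the log2 scale (SE 0.41, adjusted p = 0.989), with the sign changed without NC replicate 3 (-0.34). The sum of both genes was 6.56 ± 3.06 FPKM in the NC group and 9.54 ± 4.09 FPKM in the APAP group (SD, n = 3). Its log2 fold change of 0.48 (SE 0.39, adjusted p = 0.408) did not pass, and a two-sided exact permutation test of the 3 against 3 sums gave p = 0.5, where 0.1 is the smallest it can give.

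The 2 copies therefore stood in different proportions in the groups. Hspa1a took 4.31%, 6.55% and 4.97% of the reads on both genes in the NC libraries (95% Wilson intervals 2.58 to 7.10%, 4.63 to 9.20% and 2.54 to 9.50%). It took 33.3%, 43.2% and 32.5% in the APAP libraries (intervals 29.3 to 37.6%, 36.1 to 50.6% and 28.2 to 37.1%). In AMSC replicates 2, 3 and 4 the share was 11.2%, 16.7% and 12.4% (intervals 8.74 to 14.2%, 15.7 to 17.7% and 9.27 to 16.3%). The 3 groups did not overlap in this share, which was looked at after the values were seen and was not tested. AMSC replicate 3, with 865 and 4325 reads on the pair, had the highest share of its group, above the interval of AMSC replicate 2 and with an interval that overlapped that of AMSC replicate 4. These intervals cover counting error only.

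Hspa8, the HSP70 that is made without stress, had 336.7, 352.8 and 258.7 FPKM in the NC libraries and 454.8, 599.5 and 471.5 FPKM in the APAP libraries. It was higher in every APAP library, by 0.69 on the log2 scale (SE 0.17, adjusted p = 0.0246 from limma). That call was lost without NC replicate 3 (0.55, adjusted p = 0.0649), NC replicate 1 (adjusted p = 0.0630) or APAP replicate 2 (adjusted p = 0.0843), and with quantile normalization (0.36, adjusted p = 0.187). The call was also lost when all genes above 0 were tested. Hsp90aa1, the stress-inducible cytosolic HSP90, had 41.8 to 64.4 FPKM in the NC group and 63.0 to 77.7 FPKM in the APAP group, which differed by 0.29 on the log2 scale (SE 0.19, adjusted p = 0.293).

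Dnaja1 and Hsph1 went the other way. Dnaja1, a J-domain protein that serves Hspa8, had 47.0, 39.0 and 38.5 FPKM in the NC libraries and 23.5, 27.0 and 25.8 FPKM in the APAP libraries. All APAP libraries were lower, and the log2 fold change of -0.68 (SE 0.13, limma adjusted p = 0.00854) kept its call without any single library. Dnaja1 overlaps Smu1 on the other strand (10.5 to 14.8 FPKM), and whether the counting used strand is not given in the sources used here. Hsph1 (HSP110), the exchange factor of HSP70, had 12.8, 11.8 and 6.48 FPKM in the NC libraries and 4.78, 5.91 and 3.94 FPKM in the APAP libraries. Its log2 fold change was -0.91 (SE 0.25, adjusted p = 0.0302 from limma), and without NC replicate 3, the lowest NC library, it was -1.19 (adjusted p = 0.00694). It failed the adjusted p without NC replicate 1 (0.102), NC replicate 2 (0.109), APAP replicate 1 (0.0553) or APAP replicate 3 (0.0860). Hsph1 also failed it when all genes above 0 were tested and with all 9 libraries in 1 fit.

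The remaining members did not pass. Bag3, which links HSP70 to selective autophagy, had 17.3, 17.9 and 15.4 FPKM in the NC libraries and 18.0, 26.6 and 21.5 FPKM in the APAP libraries. The groups just failed to touch, and the log2 fold change of 0.35 had an adjusted p of 0.142 from limma. Without APAP replicate 1 it was 0.48 (adjusted p = 0.0423). Hspb1 (8.08 to 11.8 against 9.55 to 14.1 FPKM) and Hspd1 (152.4 to 190.2 against 142.9 to 162.1 FPKM) overlapped between the groups, with log2 fold changes of 0.15 and -0.10.

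**Figure D4:**
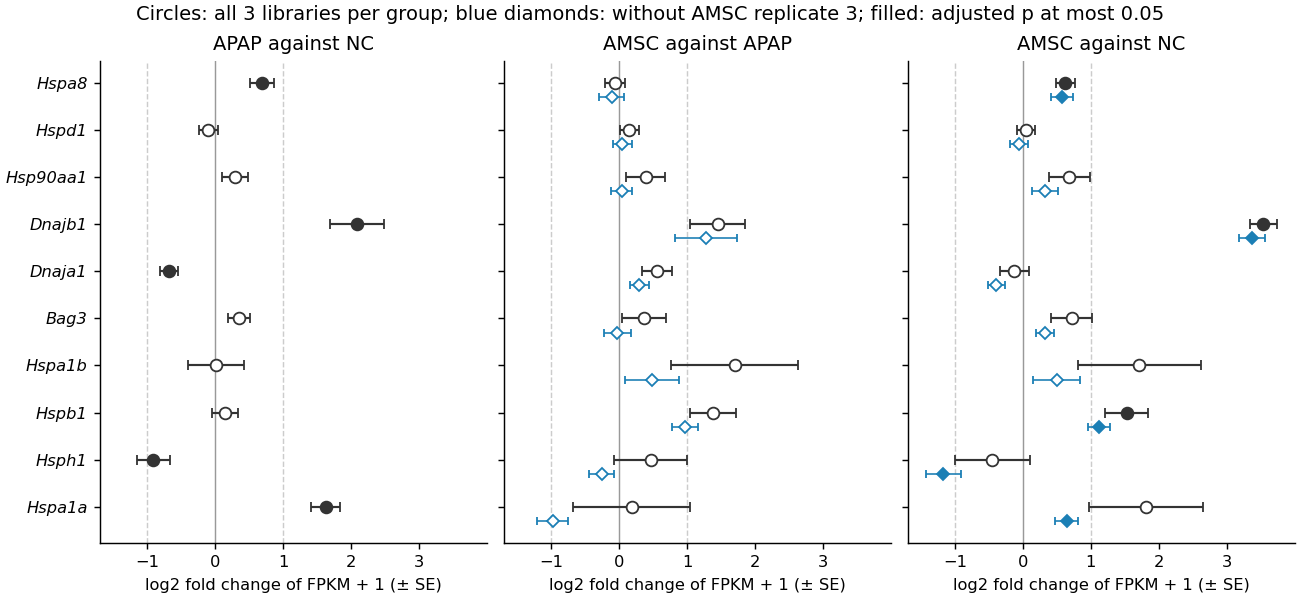
Log2 fold change of FPKM + 1 with its SE (horizontal axis) for the members in APAP against NC, AMSC against APAP and AMSC against NC. Circles are fits with all 3 libraries per group and blue diamonds fits without AMSC replicate 3, filled where the adjusted p was at most 0.05, and dashed lines mark changes of 1. Dnajb1 at 3.54 in AMSC against NC is the farthest point, and the diamonds of Hspa1a, Hspa1b and Hsph1 lie left of their circles.

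The second comparison asked which members differed between mice that received AMSCs after APAP and mice that received APAP alone. In AMSC against APAP, 0 of the 10 members were DEGs, where 1.96% of all genes tested were, and 0 passed the adjusted p from limma, where 3.78% did. At an unadjusted p under 0.05 from limma there were 3 members, Dnajb1, Hspb1 and Dnaja1, where 2029 of the 9699 genes tested were. Voom on the recovered reads also gave 0 DEGs among the members, where 296 of 9699 genes were DEGs. With all 9 libraries in 1 fit, Dnajb1 (1.45, adjusted p = 0.0482) and Hspb1 (1.38, adjusted p = 0.0295) were DEGs, where 216 of 9699 genes were. Dnajb1, Hspb1 and Dnaja1 were also the members whose groups did not overlap, all higher in the AMSC group, against 27% of genes in either direction. The median log2 fold change of the members was 0.43, and 0.043 without AMSC replicate 3, while that of all genes tested was 0.013.

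Dnajb1 had 96.9, 128.1 and 83.4 FPKM in AMSC replicates 2, 3 and 4, all above the highest APAP library (65.8 FPKM). Its log2 fold change against the APAP group was 1.45 (SE 0.40, adjusted p = 0.0960 from limma), and 1.28 (adjusted p = 0.279) without AMSC replicate 3. Without APAP replicate 2, the highest of its group, it was a DEG with 1.87 (adjusted p = 0.0292).

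Hspb1 (HSP27) is a small heat shock protein that also binds actin. It had 23.1, 53.7 and 21.7 FPKM in the AMSC libraries, against 9.69, 9.55 and 14.1 FPKM in the APAP libraries. Each AMSC library was above each APAP library. The log2 fold change was 1.38 (SE 0.33, adjusted p = 0.0695 from limma) with all libraries and 0.97 (SE 0.19, adjusted p = 0.0944) without AMSC replicate 3. Dnaja1 had 32.3, 54.8 and 30.4 FPKM in the AMSC libraries, between the NC and APAP groups in 2 of the 3. Its difference from the APAP group was 0.56 on the log2 scale (SE 0.22, adjusted p = 0.207), and 0.29 without AMSC replicate 3.

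The differences of Hspa1a, Hspa1b and Hsph1 depended on AMSC replicate 3. Hspa1a had 1.23, 22.4 and 0.942 FPKM in AMSC replicates 2, 3 and 4. AMSC replicates 2 and 4 were thus below the lowest APAP library (2.07) and above the highest NC library (0.585). The log2 fold change against the APAP group was 0.19 (SE 0.86, adjusted p = 0.933 from limma) with AMSC replicate 3 and -0.98 (SE 0.23, adjusted p = 0.130) without it. Hspa1b had 10.4, 118.7 and 7.07 FPKM, of which only AMSC replicate 4 was inside the APAP range (2.88 to 8.67). Its log2 fold change was 1.70 (SE 0.93, adjusted p = 0.352), and 0.49 without AMSC replicate 3. The sum of both genes gave 1.35 (SE 0.94, adjusted p = 0.474; exact permutation p = 0.5), and 0.10 (SE 0.37) without AMSC replicate 3. Hsph1 had 4.33, 20.8 and 3.45 FPKM, and its log2 fold change changed from 0.46 (adjusted p = 0.692) to -0.26 when AMSC replicate 3 was left out.

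For Hspa8, Hsp90aa1, Bag3 and Hspd1 the AMSC and APAP groups overlapped. Hspa8 had 472.1, 515.3 and 463.9 FPKM in the AMSC libraries, all within the APAP range, and limma gave a difference of -0.06 on the log2 scale (SE 0.15, adjusted p = 0.856). Hsp90aa1 had 70.2, 146.9 and 69.1 FPKM and Bag3 had 19.3, 49.9 and 23.5 FPKM. Their log2 fold changes were 0.39 and 0.37, or 0.037 and -0.028 without AMSC replicate 3. Hspd1 had 158.7, 196.8 and 161.3 FPKM, a log2 fold change of 0.15 (adjusted p = 0.604).

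The third comparison set the AMSC group against the NC group, and so shares its libraries with both others. In AMSC against NC, 2 of the 10 members were DEGs, Dnajb1 and Hspb1, both higher, where 6.01% of all genes tested were DEGs. Hspa8 also passed the adjusted p, higher, where 26% of genes passed. The groups did not overlap for 6 members (Dnajb1, Hspb1, Hspa8, Hspa1a, Hsp90aa1 and Bag3, all higher), against 43.5% of genes. Of these, Hspa1a passed the filter on low values only through the groups where it is high, so its place in this count is no support. Without AMSC replicate 3 there were 3 DEGs, Dnajb1 and Hspb1 higher and Hsph1 lower, where 6.46% of genes were DEGs. Without NC replicate 3 the DEGs were Dnajb1 and Hspb1, where 6.43% of genes were. The median log2 fold change of the members was 0.70, and 0.41 without AMSC replicate 3, against 0.016 for all genes tested.

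Dnajb1 rose to 102.8 ± 22.9 FPKM (SD, n = 3) in the AMSC group, which was 3.54 above the NC group on the log2 scale (SE 0.20, adjusted p = 2.27e-05 from limma). The value was 3.37 without AMSC replicate 3 and 3.36 without NC replicate 3. Hspb1 rose from 9.89 ± 1.88 to 32.8 ± 18.0 FPKM, by 1.53 on the log2 scale (SE 0.32, adjusted p = 0.0102). It was 1.12 (SE 0.16, adjusted p = 0.00324) without AMSC replicate 3 and 1.52 (adjusted p = 0.0283) without NC replicate 3, and its call was lost when all genes above 0 were tested (adjusted p = 0.0954). Hspa8 was higher by 0.62 on the log2 scale (SE 0.14, adjusted p = 0.0146), and its call held without AMSC replicate 3 (adjusted p = 0.0395) or NC replicate 3 (0.0264) and was lost with quantile normalization (0.39, adjusted p = 0.122). The call of Hspa8 was also lost when all genes above 0 were tested and with the replicate number as a block.

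Hspa1a passed the filter only through the groups where it is high, so its values here are no support for a rise of the members. It was higher than in the NC group in all 3 AMSC libraries, and its test turned on AMSC replicate 3. With that library the log2 fold change was 1.81 (SE 0.83, adjusted p = 0.151 from limma), and without it 0.65 (SE 0.17, adjusted p = 0.0344), which passed the adjusted p but was too small for a DEG. Hspa1b gave 1.71 (SE 0.90, adjusted p = 0.202) and 0.49 (adjusted p = 0.343) in the same order. The summed level of both gave 1.83 (SE 0.92, adjusted p = 0.185; exact permutation p = 0.2) and 0.59 (adjusted p = 0.268). For Hsph1 the difference was -0.45 on the log2 scale (SE 0.55, adjusted p = 0.591) and became -1.17 (SE 0.26, adjusted p = 0.0189) without AMSC replicate 3. Hsp90aa1 (0.69, adjusted p = 0.133), Bag3 (0.72, adjusted p = 0.118), Dnaja1 (-0.13, adjusted p = 0.704) and Hspd1 (0.05, adjusted p = 0.831) did not pass.

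The members did not form a single pattern, either over the 9 libraries or once AMSC replicate 3 was set aside. As a description, with groups and single libraries shared by all points, the Pearson correlation of log2(FPKM + 1) between Hspa1a and Hspa1b was 0.82 over 9 libraries and 0.23 over the 8 without AMSC replicate 3. Between Hspa1b and Bag3 it went from 0.79 to -0.18. That of Dnajb1 and Hspa8 stayed at 0.86 and 0.85, and that of Hsph1 and Dnaja1 at 0.87 and 0.78. Hsp90aa1 and Bag3 had 0.94 over 9 libraries and 0.78 over 8. Dnaja1 and Hspa8 had -0.38 and -0.74, and Hspa1a and Dnaja1 went from 0.12 to -0.93.

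The genes outside the list whose log2(FPKM + 1) went most closely with summed Hspa1a and Hspa1b were Gm12346, a transcribed processed pseudogene (r = 0.99 over 9 libraries, 0.93 over 8), Slc41a1 (0.92 and 0.38), Homer1 (0.87 and 0.44), Hivep1 (0.87 and 0.65) and Gapdh (0.86 and 0.50). Gm12346 had 4.95 FPKM in AMSC replicate 3 and 0.825 to 1.75 FPKM elsewhere. Gapdh, a glycolytic enzyme often used as a reference gene, had 29.3 FPKM in AMSC replicate 3 and 11.5 FPKM in APAP replicate 1. In the other 7 libraries it had 0.914 to 2.19 FPKM. How reads that match several genes were counted is not given in the sources used here, so the levels of Gapdh and of the pseudogene are uncertain. Whether these rows gained or lost reads to similar genes was not tested.

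Other chaperone genes were read from 7 lists of 73 genes around the members, of which 69 were tested. Over all lists, 10 rose and 12 fell by the adjusted p in APAP against NC, where 25.9% of all genes tested passed, and 5 and 2 of them were DEGs, where 7.9% were. Without NC replicate 3, 6 rose and 8 fell, where 22.2% of genes passed. In AMSC against APAP 1 gene rose and was a DEG, where 3.78% of genes passed the adjusted p and 1.96% were DEGs. In AMSC against NC 11 rose and 11 fell, where 26% of genes passed, with 7 and 1 DEGs, where 6.01% were. The counts by the adjusted p were 9 and 8 without AMSC replicate 3, where 23.9% of genes passed, and 11 and 11 without NC replicate 3, where 24.3% did. The DEG counts were 7 and 3 without AMSC replicate 3, where 6.46% of genes were DEGs. They were 6 and 2 without NC replicate 3, where 6.43% were. Median log2 fold changes of the 69 genes were 0.0075, 0.035 and -0.010 in that order.

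**Figure D5:**
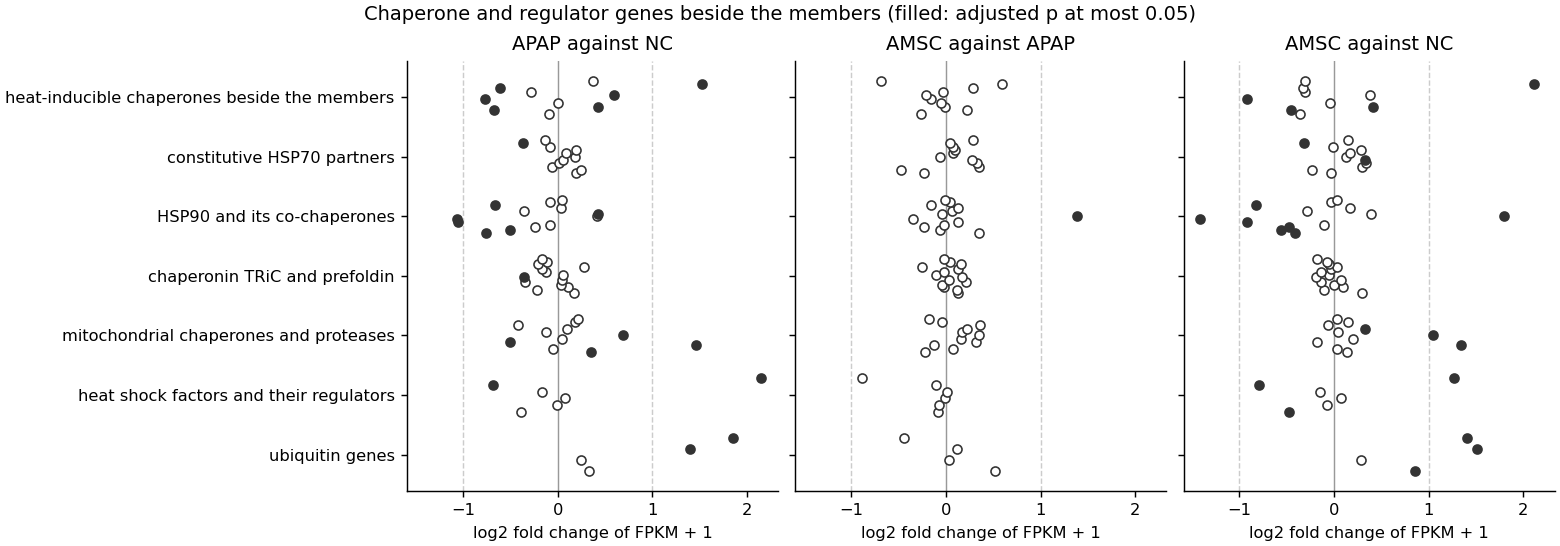
Log2 fold change of FPKM + 1 (horizontal axis) of the 69 tested companion genes, 1 point each, in 7 lists and 3 comparisons, filled where the adjusted p was at most 0.05. The filled points of the HSP90 list lie mostly left of 0, and the single filled point of AMSC against APAP is Fkbp5 at 1.38.

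A list named heat-inducible chaperones beside the members had 10 tested genes, and whether each is induced by heat was not tested here. Of these, 3 rose and 3 fell in APAP against NC, where 25.9% of all genes tested passed. Without NC replicate 3, 2 rose and 3 fell, where 22.2% passed. Hspb8, the small heat shock partner of Bag3, rose from a mean of 80.6 (69.3 to 90.2) to one of 247 FPKM (152 to 355; log2 fold change 1.53, adjusted p = 0.00817 from limma) and stood at 351 ± 30.7 FPKM (SD, n = 3) in the AMSC group (2.11 against NC, adjusted p = 3.36e-05). Hspa13, an HSP70 relative, fell by 0.77 on the log2 scale and by 0.92 in AMSC against NC. In AMSC against NC it became a DEG without NC replicate 3 (-1.03, adjusted p = 0.00825 from limma) or AMSC replicate 3 (-1.09, adjusted p = 0.00254). Dnajb2 fell by 0.67 and by 0.45, the second of which was lost without AMSC replicate 3 (adjusted p = 0.0613).

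Of 13 tested genes of the HSP90 and co-chaperone list, 5 fell and 1 rose in APAP against NC, where 25.9% of all genes tested passed in either direction. In AMSC against NC 6 fell and 1 rose, where 26% passed. Fkbp4, a steroid receptor co-chaperone, fell by 1.06 on the log2 scale in APAP against NC (73.3 ± 10.8 to 34.5 ± 2.98 FPKM, SD, n = 3) and by 1.41 in AMSC against NC. Chordc1 fell by 1.05 and by 0.92, and Ahsa1, the activator of the HSP90 ATPase, fell by 0.76 in APAP against NC. Hsp90ab1, the constitutive HSP90, rose by 0.43 in APAP against NC (adjusted p = 0.0453 from limma), a call that was lost without NC replicate 3 (adjusted p = 0.116), when 0 genes of the list rose. Fkbp5, a glucocorticoid-responsive immunophilin, had 9.42 ± 0.711 FPKM in the NC group and 13.0 ± 2.39 FPKM in the APAP group. It rose to 35.5 ± 5.71 FPKM in the AMSC group, by 1.38 against APAP (adjusted p = 0.00812) and 1.80 against NC (adjusted p = 8.01e-05).

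The constitutive HSP70 partners and the cytosolic chaperonin genes are read against the same 25.9% of genes in APAP against NC and 26% in AMSC against NC. Of 11 partners, St13 alone passed in APAP against NC (-0.37), and St13 (-0.32) and Dnaja2 (0.33) passed in AMSC against NC. St13 was lost in both without NC replicate 3 (adjusted p = 0.0929 and 0.0689), and without AMSC replicate 3 St13 (adjusted p = 0.0563) and Dnaja2 (0.0760) were lost in AMSC against NC. Of 14 genes of the chaperonin TRiC and of prefoldin, Cct8 alone passed, lower in APAP against NC (-0.36), and it was lost without NC replicate 3 (adjusted p = 0.114). Among 11 mitochondrial chaperones and proteases, Clpx, the unfoldase of the ClpXP protease, rose by 1.46 in APAP against NC and 1.34 in AMSC against NC. Grpel2, the exchange factor of mitochondrial HSP70, rose by 0.69 and 1.05, Dnaja3 fell by 0.50 in APAP against NC, and Hspa9, mitochondrial HSP70 itself, rose by 0.32 in AMSC against NC. In APAP against NC the calls of Grpel2 (adjusted p = 0.0841) and Dnaja3 (0.0837) were lost without NC replicate 3, and in AMSC against NC that of Hspa9 was lost without AMSC replicate 3 (0.0846). The rise of Grpel2 in AMSC against NC was 0.94 without NC replicate 3, too small for a DEG. Hspe1, which works with Hspd1, had a log2 fold change of -0.42 in APAP against NC (adjusted p = 0.152 from limma), and both genes overlap on opposite strands.

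Of the heat shock factors tested (Hsf1, Hsf2 and Hsf4), Hsf4 alone passed. Hsf1 had log2 fold changes of 0.08 in APAP against NC and 0.07 in AMSC against NC, and Hsf2 -0.16 and -0.15. Hsf4 fell by 0.68 and 0.79, and the first of these calls was lost without NC replicate 3 (-0.63, adjusted p = 0.0883). Ier5, a stress gene whose product helps to activate HSF1, rose by 2.15 in APAP against NC (adjusted p = 0.00446 from limma) and 1.26 in AMSC against NC, and Hikeshi, the carrier that takes HSP70 into the nucleus, fell by 0.47 in AMSC against NC, a call lost without NC replicate 3 (adjusted p = 0.0666) or AMSC replicate 3 (0.0741). Ubb, which encodes ubiquitin, rose by 1.39 in APAP against NC and 1.51 in AMSC against NC, and Rps27a rose by 0.86 in AMSC against NC.

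Summed markers of other cells differed between the groups for some lists and overlapped for others. Neutrophil markers summed to 0.330 to 1.94 FPKM in the NC group (Ly6g listed at 0 in all 3 libraries), 7.69 to 35.3 in the APAP group and 4.38 to 6.17 in the AMSC group. Kupffer cell markers summed to 53.6 to 108, 79.8 to 195 and 44.5 to 72.1 FPKM in the same order. Erythroid markers summed to 135 to 254, 306 to 1406 and 183 to 312 FPKM, and stromal and stellate markers to 19.7 to 35.6, 24.9 to 54.4 and 25.3 to 42.4. The stromal and stellate sums overlapped between all groups. Cholangiocyte markers summed to 2.43 to 4.96, 23.0 to 37.6 and 5.24 to 5.62 FPKM, without overlap between the groups. In the APAP group most of that sum was Sox9 (means 1.46, 26.7 and 3.06 FPKM in the same order). Krt19, Krt7 and Epcam overlapped between the NC and APAP groups. Sinusoidal endothelial markers summed to 17.0 to 36.3, 21.5 to 54.3 and 18.3 to 19.9 FPKM. The part of these cells in the differences above was not tested.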

How the data were processed

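RNA was measured in 9 mouse livers, 3 per group, and groups and replicate numbers were taken from the sample labels. The authors deposited FPKM values per gene with gene lengths and coordinates. The aligner, the counting program and its use of strand are not given in the sources used here. The processing notes name GRCm38 (mm10), and 53585 of 54495 shared identifiers (98.3%) had the start and end of GENCODE vM21. FPKM times gene length gave whole reads (within 0.1) for 100% of the values above 0, so reads per gene were recovered.

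Genes that averaged 1 FPKM or more entered the test, which used limma 3.58.1 on log2(FPKM + 1) (lmFit, eBayes with trend) in R 4.3.3 and Benjamini-Hochberg adjustment. The DEG thresholds follow the study. The procedure was tested on simulated data. Summed Hspa1a and Hspa1b replaced both rows in a repeat of the fit, beside an exact permutation test. The settings varied were the pseudocount (0.1), the filter (all genes above 0, or 5 FPKM on average), quantile normalization, median-of-ratios rescaling, all 9 libraries in 1 fit, the replicate number as a block, voom on recovered reads, no trend, the adjusted p alone and leaving out each library. Deviations of same-numbered APAP and NC libraries from their group means correlated at 0.213, 0.160 and 0.378, all over 0.1. Unlike numbers of these groups gave -0.342 to 0.0870, but AMSC replicate 2 and APAP replicate 3 gave 0.409. Deviations within a group sum to 0, so such values do not establish pairs. Pairing is not given in the labels, and the main fits used none.

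The members and all gene lists were chosen with earlier results of these data known. Genes named were all members, Hspe1, Hsf1, Hsf2, Hsp90ab1, up to 3 genes per companion list and comparison by largest change among those past the adjusted p, and the 5 genes most correlated with summed Hspa1a and Hspa1b. A gene that this rule names is not reported here. Transcripts were aligned with Biopython 1.88.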

Additional observations from a re-analysis of the deposited data

How the results depend on the processing

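Of the log2 fold changes of single members under settings that kept all libraries, 248 kept direction and DEG call, 9 gained a DEG call, 3 lost one and 7 reversed. When single libraries were left out, 164 kept both, 4 gained a DEG call and 12 reversed. By the adjusted p alone, 7 calls were lost when single libraries were left out, those of Hspa8 and Hsph1 in APAP against NC. The count of DEGs among members in APAP against NC was 2, where 766 of all 9699 genes tested were DEGs. It was 1 when all genes above 0 were tested (Dnajb1 lost), where 591 of 24849 were. Among genes averaging 5 FPKM or more it was 1 (Hspa1a was not tested), where 478 of 4935 were. With all 9 libraries in 1 fit it was 1 (Hspa1a lost), where 783 of 9699 were. By the adjusted p alone it was 5, where 2514 of 9699 passed. It was 3, with Hsph1 lower, with a pseudocount of 0.1, where 1148 of 9699 genes were DEGs, and under voom, where 1197 were. Without APAP replicate 2 (690 of 9699 genes) or NC replicate 3 (796) it was also 3, with Hsph1 lower. In AMSC against APAP it was 0, where 190 of 9699 genes were DEGs. There it was 2 with all 9 libraries in 1 fit (Dnajb1 and Hspb1), where 216 were. When single libraries were left out it was 0 to 1, where 90 to 229 of 9699 genes were DEGs. In AMSC against NC it was 2, where 583 of 9699 genes were DEGs, and 1 when all genes above 0 were tested (Hspb1 lost), where 483 of 24849 were.

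In APAP against NC the replicate block changed no call. AMSC libraries share only the numbers 2 and 3 with the other groups. Their deviations correlated at -0.104 and -0.293 with APAP and -0.199 and -0.309 with NC. Deviations within a group sum to 0, so these values do not show whether the libraries are paired. With the replicate block there were 3 DEGs among the members in AMSC against APAP, where 335 of 9699 genes were DEGs. In AMSC against NC there were 4, where 611 of 9699 genes were. The summed Hspa1a and Hspa1b then gave 2.33 (adjusted p = 0.00168 from limma) and 2.66 (adjusted p = 0.0252) in the same order. In AMSC against NC Hsph1 turned to 0.14 and Dnaja1 to 0.12.

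Other reversals were those of Hspa1b in APAP against NC (-0.0195), Hspa8 in AMSC against APAP (0.0362) and Hspd1 in AMSC against NC (-0.17) with quantile normalization, and of Hspa1a in AMSC against APAP with a pseudocount of 0.1 (-0.0104) and under voom (-0.15). Leaving out single libraries gave ranges across 0 for Hspa1b (-0.34 to 0.42) and Hspb1 (-0.0217 to 0.27) in APAP against NC, for Hspa1a (-0.98 to 0.82), Hsph1 (-0.26 to 0.89), Bag3 (-0.0279 to 0.63) and Hspa8 (-0.14 to 0.0612) in AMSC against APAP, and for Dnaja1 (-0.39 to 0.03) and Hspd1 (-0.0524 to 0.14) in AMSC against NC. The cause of these changes was not tested. With 8 to 30 reads per NC library, Hspa1a is the member that depth limits most.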
